A study of Mus musculus with 16 samples.

Results

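The 9 genes described here encode Arc, the 3 Homer proteins, the 3 Shank proteins, PSD-95 (Dlg4) and SAPAP1 (Dlgap1). They were chosen by gene symbol in the annotation of the array, and each gene is represented by its brightest probe set on average over the 16 arrays. The 9 genes had 10 probe sets among the 20372 of the deposited table, and 8 of the genes were tested among 8520 annotated probe sets that lay above the median intensity of the array in at least 3 arrays. Shank2 (probe set 6965355) lay above the median in 1 array and was not tested. Whole hippocampus of 16 wildtype male C57BL/6 mice aged 3 months was measured, with 1 Affymetrix mouse exon array per mouse. SL327 with kainic acid (n = 3 mice) combined 50 mg/kg of the MEK inhibitor SL327 with 20 mg/kg kainic acid, the inhibitor having been injected 1 h earlier, and kainic acid (n = 3) was 20 mg/kg of the glutamate receptor agonist without the inhibitor. SL327 alone (n = 3) was 50 mg/kg of the inhibitor, vehicle (n = 3) was the solvent, and untreated mice (n = 4) had no injection and a labelled time of 0 h. Tissue of the kainic acid groups was taken 1 h after seizure onset, and SL327 alone and vehicle mice carry the matched label of 1 h, so mice given both agents may have been exposed to SL327 for longer than mice given SL327 alone. The labels name PBS for the vehicle mice whereas the protocol names DMSO with PBS, so the solvent these mice received is not certain. All levels are log2 intensities as deposited, and all differences are on the log2 scale.

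Excitatory synapses are built on a postsynaptic density in which PSD-95 anchors glutamate receptors, SAPAP proteins bind PSD-95, Shank proteins bind SAPAP, and Homer proteins join Shank to group I metabotropic glutamate receptors. Most of this scaffold is made constitutively, whereas Arc and the short form of Homer1 are immediate early gene products of active neurons. Arc promotes the internalization of AMPA receptors, and short Homer1 lacks the coiled coil with which the long Homer proteins pair and so uncouples them. Neuronal activity reaches the nucleus through several pathways, one of which is MEK, the kinase that phosphorylates ERK. Comparing kainic acid with and without SL327 addresses how far the seizure response of each gene differs when MEK is inhibited.

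On the GRCm38.p6 mouse assembly, Arc lies at chr15:74669081-74672570, Homer1 at chr13:93303757-93405129, Homer2 at chr7:81600481-81706925 and Homer3 at chr8:70282880-70294361. Shank1 lies at chr7:44308916-44360094, Shank2 at chr7:143978077-144426043, Shank3 at chr15:89493013-89560261, Dlg4 at chr11:70017203-70045535 and Dlgap1 at chr17:69969073-70821413. The files used here give no position of a probe set within its gene, so the short and long forms of Homer1 cannot be told apart. RefSeq promoter windows, from 250 bases before a transcript start to 50 bases from the start on, were matched by symbol for 6 of the 9 genes, with 11 windows in all, and Arc, Shank1 and Shank2 were not among them. For each Homer gene the 250 bases before the most upstream transcript start among its windows are shown, which for Homer3 is a start inside the gene interval given above, because the array values set Homer1 apart from the other Homer genes, with every copy of TGACGT, the greater part of the cAMP response element, on either strand in capitals.
Homer1, chr13:93303507-93303756, plus strand: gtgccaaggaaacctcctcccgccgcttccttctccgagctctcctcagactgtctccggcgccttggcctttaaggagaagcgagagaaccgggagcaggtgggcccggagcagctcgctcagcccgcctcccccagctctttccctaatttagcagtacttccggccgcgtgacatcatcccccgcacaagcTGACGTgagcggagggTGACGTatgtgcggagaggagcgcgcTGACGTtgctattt
Homer2, chr7:81706926-81707175, minus strand: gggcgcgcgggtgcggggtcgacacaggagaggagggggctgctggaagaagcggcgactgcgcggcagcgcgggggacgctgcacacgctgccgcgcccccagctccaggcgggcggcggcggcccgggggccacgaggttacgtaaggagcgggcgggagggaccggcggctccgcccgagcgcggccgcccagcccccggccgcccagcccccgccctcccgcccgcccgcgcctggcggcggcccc
Homer3, chr8:70282749-70282998, plus strand: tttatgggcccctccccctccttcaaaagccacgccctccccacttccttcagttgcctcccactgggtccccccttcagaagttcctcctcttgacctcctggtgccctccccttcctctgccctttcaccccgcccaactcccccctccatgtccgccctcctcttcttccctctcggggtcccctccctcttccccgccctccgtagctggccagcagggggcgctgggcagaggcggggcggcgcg
The Homer1 stretch held TGACGT 3 times, with first bases 56, 40 and 14 bases before the start. TGACGT, searched on both strands, was in 7.51% of all 32851 promoter windows of the table, and 66 windows (0.201%) held it at least 3 times. None of the other 10 windows of these genes, a second one of Homer1 among them, held TGACGT. The full palindrome TGACGTCA, which contains TGACGT, was in 1.79% of all windows and in none of these 11. TGANTCA, the AP-1 motif, was in 7.81% of all windows and in none of these, and the CArG box, to which serum response factor binds, was in 1.63% and in none of these. GCGTGGGCG, the Egr motif, was in 0.612% of all windows and once in that of Shank3. These matches are a description of letters and do not show that a factor binds.

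The arrays of a group correlated with each other at a mean r of 0.958 to 0.975 across probe sets, which are not independent of each other, and no array was left out. All 5 marker genes of neurons were above the array median on average, with a summed level (log2 of the summed intensities) of 12.37 to 12.42 in SL327 with kainic acid, 12.39 to 12.49 in kainic acid, 12.37 to 12.43 in SL327 alone, 12.37 to 12.39 in vehicle and 12.41 to 12.54 in untreated mice. Of 45 measured markers of 11 cell classes, 14 averaged below the array median, among them Aif1 of microglia, Cldn5 and Pecam1 of endothelium and Gja1 of astrocytes. Fewer cells of a type and less RNA per cell cannot be told apart in whole hippocampus.

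Kainic acid raised Arc and Homer1, whereas the 6 constitutive genes tested differed from vehicle by -0.19 to 0.02. Arc (6836691) was at 12.29, 12.40 and 12.35 in kainic acid mice, against 9.90, 9.99 and 9.90 in vehicle mice. All kainic acid mice lay far above all vehicle mice, and close together. In 13.5% of all probe sets tested the kainic acid mice lay above all vehicle mice, by whatever distance. The change was 2.42 (SE 0.28, 95% interval 1.82 to 3.01, limma's adjusted p = 3.64e-05), a 5.34-fold rise (3.54 to 8.08), which ranked 10 of 8520 by size. Homer1 (6808997) was at 10.45, 10.49 and 10.45 in kainic acid mice, against 8.89, 8.83 and 8.84 in vehicle mice. It rose by 1.61 (SE 0.07, 95% interval 1.46 to 1.76), a 3.05-fold rise, and its adjusted p of 1.19e-08 was the smallest of all probe sets in this comparison. The change was larger for Arc than for Homer1, a difference that was not tested, and Arc varied more within groups (pooled SD over the 5 groups of 0.38, and 0.09 for Homer1).

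Among the constitutive Homer genes, Homer2 fell slightly with kainic acid and Homer3 was not called. Homer2 (6968845), a long Homer with a coiled coil, was at 7.52, 7.52 and 7.38 in kainic acid mice, against 7.61, 7.72 and 7.67 in vehicle mice. All kainic acid mice lay below all vehicle mice, as did those of 27.2% of all probe sets tested. The change was -0.19 (SE 0.05, 95% interval -0.29 to -0.09, limma's adjusted p = 0.012), a level 0.876 times that of vehicle. The signal of Homer2 was near the array median, above it in 12 of 16 arrays, and its call was lost against untreated mice (-0.12, adjusted p = 0.0562) and without vehicle replicate 2 (-0.16, adjusted p = 0.0604) or kainic acid replicate 3 (-0.14, adjusted p = 0.0618). Homer3 (6976987) was at 8.05, 8.15 and 8.10 in kainic acid mice, against 8.25, 8.29 and 8.05 in vehicle mice, so the groups overlapped, and the change of -0.10 had an interval of -0.27 to 0.07 (adjusted p = 0.43).

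None of the tested Shank, Dlg4 and Dlgap1 genes was called. Shank1 (6960260), which links SAPAP to Homer, was at 10.16, 10.27 and 10.13 in kainic acid mice, against 10.15, 10.18 and 10.19 in vehicle mice, a change of 0.01 (95% interval -0.15 to 0.17, adjusted p = 0.94). Shank3 (6832587), its paralogue, was at 8.26, 8.24 and 8.10 in kainic acid mice, against 8.27, 8.30 and 8.10 in vehicle mice, a change of -0.02 (-0.15 to 0.10, adjusted p = 0.826). Dlg4 (6782093), the core scaffold protein of the density, was at 9.88, 9.90 and 9.75 in kainic acid mice, against 9.80, 9.87 and 9.78 in vehicle mice, a change of 0.02 (-0.15 to 0.20, adjusted p = 0.872). In all 3 genes the groups overlapped and the intervals reached no further than -0.15 and 0.20, whereas that of Dlgap1 was wider. Dlgap1 (6851927) was at 8.83, 8.75 and 8.74 in kainic acid mice, against 8.88, 8.93 and 8.80 in vehicle mice, a change of -0.10 (-0.32 to 0.13, adjusted p = 0.558). A second Dlgap1 probe set (6851977) was at 7.78, 7.59 and 7.07 in kainic acid mice, against 8.31, 8.08 and 8.14 in vehicle mice. All kainic acid mice lay below all vehicle mice for this probe set, as did those of 27.2% of all probe sets tested. Its change of -0.70 had an interval of -1.50 to 0.10 (adjusted p = 0.209), and its pooled SD within groups was 0.52. Shank2 was at 7.36, 7.40 and 7.45 in kainic acid mice, against 7.39, 7.40 and 7.41 in vehicle mice, and in a fit without the intensity filter its change was 0.00 (-0.08 to 0.09, adjusted p = 0.973). Over all 16 mice Shank2 ran from 7.34 to 7.49, and its adjusted p in the 7 comparisons of that fit was 0.685 to 0.993.

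In counts, 2 of the 8 tested genes were higher and 1 was lower with kainic acid, where limma called 7.41% of all tested probe sets higher and 12.2% lower, 19.6% in all. The median change of all tested probe sets was -0.05.

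**Figure D1:**
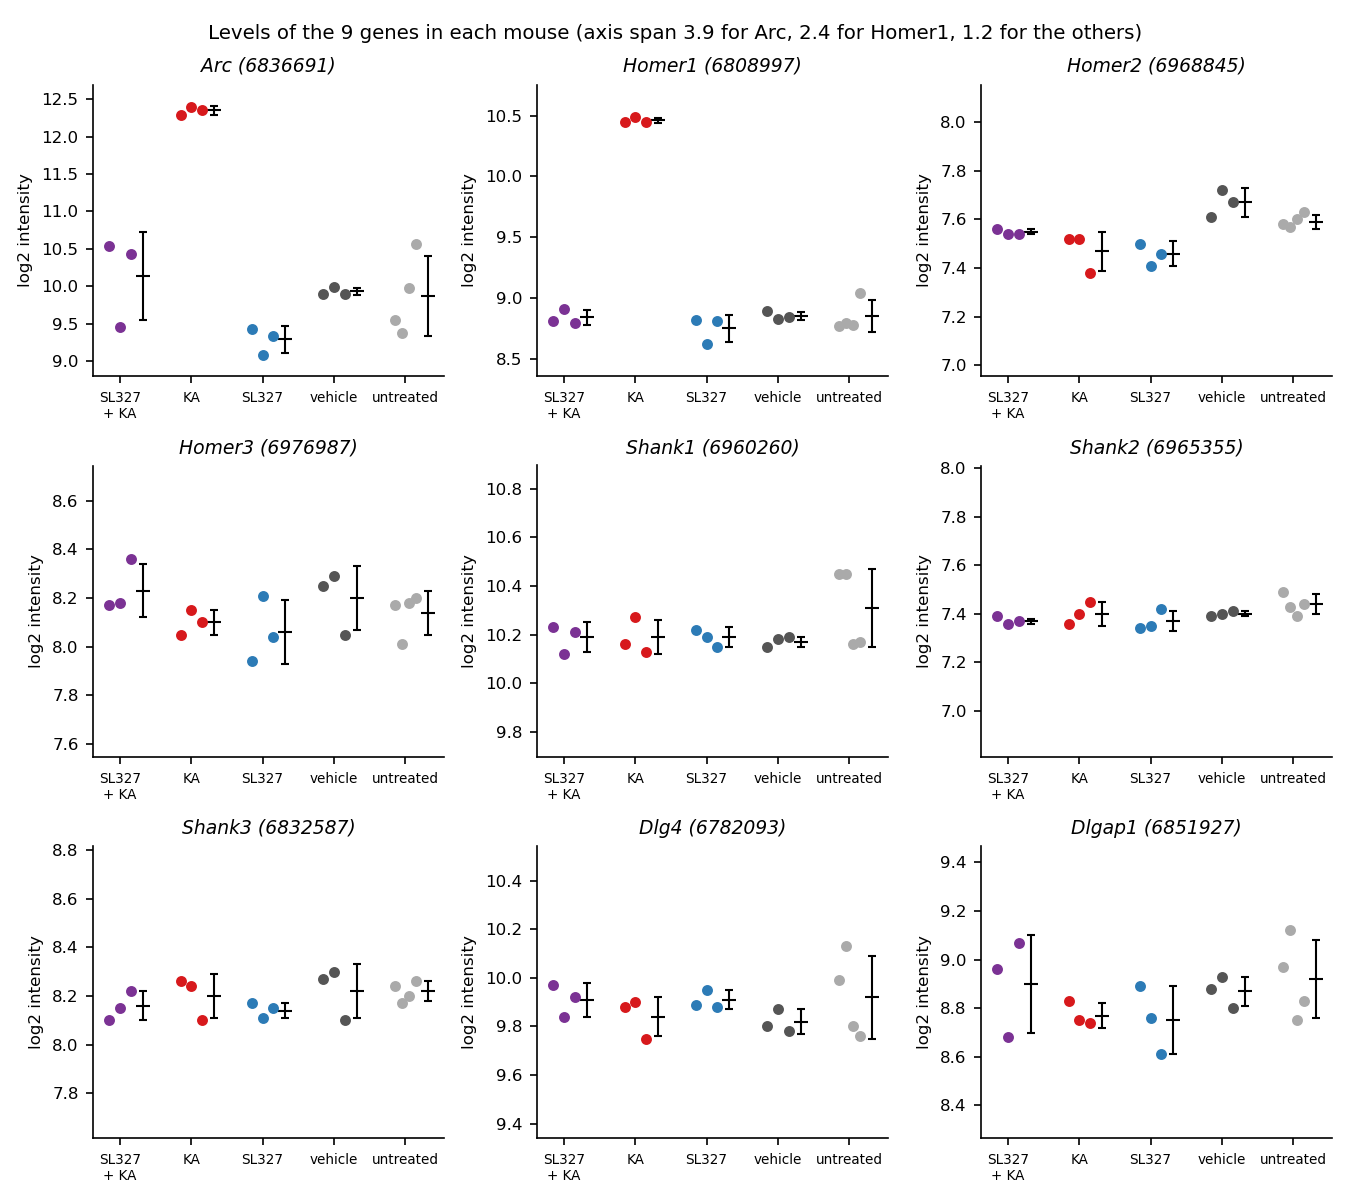
Log2 intensity (y axis) of each of the 9 genes in each mouse (points) of the 5 groups (x axis), with mean and SD beside them and the probe set in the title; the axes of Arc and Homer1 span more units than those of the other genes. The kainic acid mice stand above all others for Arc (12.29 to 12.40) and Homer1 (10.45 to 10.49), which is not so in the other panels.

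With SL327 given before kainic acid, both Arc and Homer1 were lower than with kainic acid alone. Arc was at 10.53, 9.46 and 10.43 in SL327 with kainic acid mice, against 12.29, 12.40 and 12.35 in kainic acid mice. The change was -2.21 (SE 0.28, 95% interval -2.81 to -1.61, limma's adjusted p = 1.22e-04), a level 0.216 times that of kainic acid alone. Homer1 was at 8.81, 8.91 and 8.79 in SL327 with kainic acid mice, against 10.45, 10.49 and 10.45 in kainic acid mice. No mouse given both agents came near a mouse given kainic acid alone in either gene. In 9.88% of all tested probe sets every mouse given both agents was lower than every mouse given kainic acid alone, by whatever distance. The change of Homer1 was -1.63 (SE 0.07, 95% interval -1.78 to -1.47), a level 0.324 times that of kainic acid alone, and its adjusted p of 1.02e-08 was the smallest of all probe sets. These 2 were the genes called among the 8, both lower, where 5.86% of all tested probe sets were called lower and 13.1% higher (18.9% in all).

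The constitutive genes were not called between SL327 with kainic acid and kainic acid. Homer2 was at 7.56, 7.54 and 7.54 in SL327 with kainic acid mice, against 7.52, 7.52 and 7.38 in kainic acid mice, a difference of 0.08 (95% interval -0.03 to 0.18, adjusted p = 0.287). Homer3 was at 8.17, 8.18 and 8.36 in SL327 with kainic acid mice, against 8.05, 8.15 and 8.10 in kainic acid mice, a difference of 0.14 (-0.04 to 0.31, adjusted p = 0.258). Both Homer genes were higher in every mouse given both agents than in every mouse given kainic acid alone, which held for 28% of all tested probe sets. The differences of Shank1, Shank3, Dlg4 and Dlgap1 were 0.00, -0.04, 0.07 and 0.13, with adjusted p from 0.40 to 0.984. That of the second Dlgap1 probe set was 0.29 (-0.51 to 1.09, adjusted p = 0.628).

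Whether the response to kainic acid differed with the inhibitor was tested as an interaction, the kainic acid response measured under SL327 (against SL327 alone) minus the response without it (against vehicle). For Homer1 the interaction was -1.52 (SE 0.10, 95% interval -1.74 to -1.31, limma's adjusted p = 2.87e-06, the smallest of all probe sets). For Arc it was -1.56 (SE 0.39, 95% interval -2.41 to -0.72, adjusted p = 0.032). For Homer2 it was 0.28 (SE 0.07, 95% interval 0.14 to 0.43, adjusted p = 0.0244), as Homer2 was lower with kainic acid than with vehicle but not lower with both agents than with SL327 alone. These 3 genes were called, 2 with a negative and 1 with a positive interaction, where 3.78% of all probe sets were called negative and 1.98% positive (5.76% in all). The interaction of Homer3 was 0.27 (95% interval 0.02 to 0.52, adjusted p = 0.184), and those of Shank1, Shank3, Dlg4 and Dlgap1 were -0.01, 0.04, -0.02 and 0.25, with adjusted p from 0.346 to 0.972. The call of Homer1 held without any single array. That of Arc was lost without vehicle replicate 1, 2 or 3, kainic acid replicate 2 or 3 or SL327 alone replicate 1 or 3 (adjusted p from 0.058 to 0.0729), and that of Homer2 without vehicle replicate 2 or 3, kainic acid replicate 3 or SL327 alone replicate 2 or 3 (adjusted p from 0.0507 to 0.0648).

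**Figure D2:**
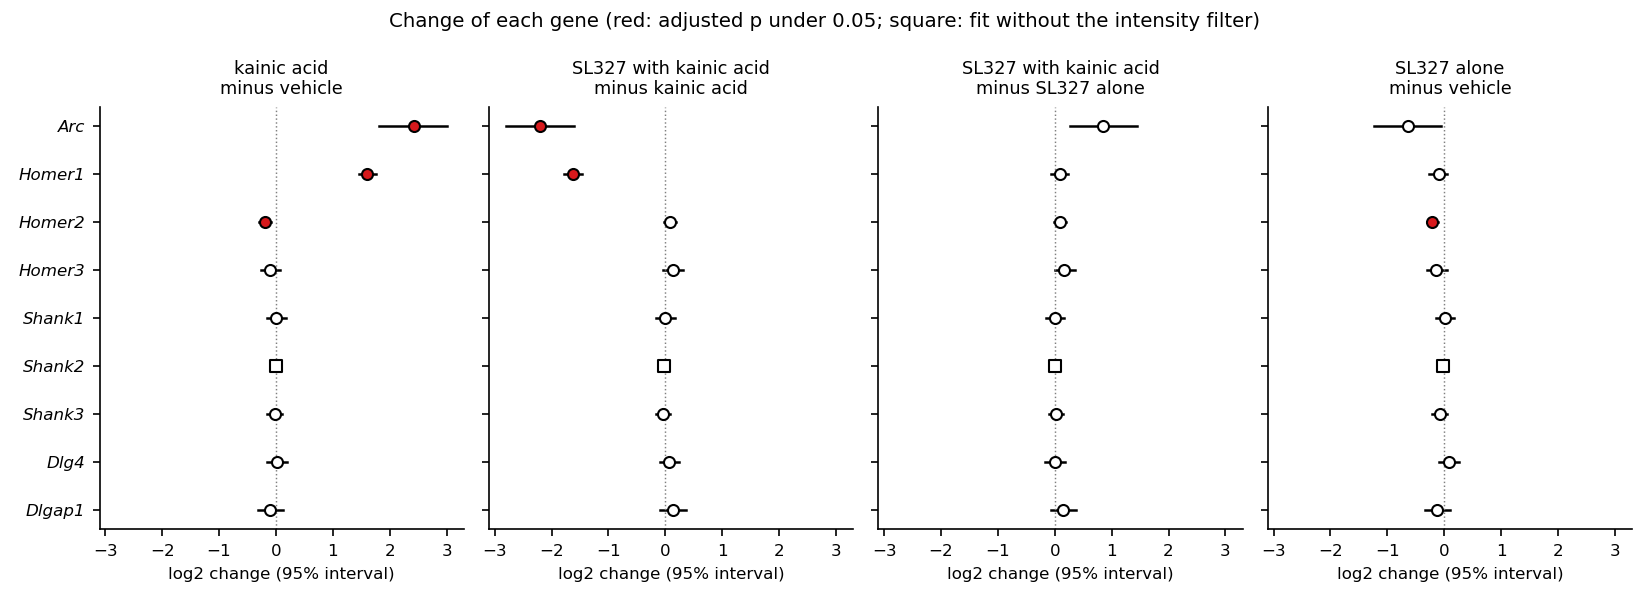
Log2 change (x axis, with 95% interval) of each gene (rows) in 4 comparisons (panels); filled red points have an adjusted p under 0.05, and the square is Shank2 from the fit without the intensity filter. Arc and Homer1 lie far right of 0 for kainic acid minus vehicle (2.42 and 1.61) and far left for SL327 with kainic acid minus kainic acid (-2.21 and -1.63), while the Shank genes, Dlg4 and Dlgap1 lie near 0.

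Under SL327 the effect of kainic acid on Homer1 was not detectable. Arc was not called either, and its level varied between the mice given both agents. Homer1 was at 8.81, 8.91 and 8.79 in SL327 with kainic acid mice, against 8.82, 8.62 and 8.81 in SL327 alone mice, a difference of 0.09 (95% interval -0.06 to 0.24, limma's adjusted p = 0.705). Arc was at 10.53, 9.46 and 10.43 in SL327 with kainic acid mice, against 9.43, 9.08 and 9.34 in SL327 alone mice. Each mouse given both agents lay above each mouse given SL327 alone, as was so for 4.38% of all probe sets, but replicate 2 only just did. Homer2 also did not overlap, at 7.56, 7.54 and 7.54 in SL327 with kainic acid mice, against 7.50, 7.41 and 7.46 in SL327 alone mice, a difference of 0.09 (95% interval -0.01 to 0.19, adjusted p = 0.529). The difference of Arc, 0.85 (SE 0.28, 95% interval 0.26 to 1.45), was the thirteenth highest of all probe sets and had an unadjusted p of 0.00824 and an adjusted p of 0.315. Without replicate 2 of SL327 with kainic acid it was 1.19 (adjusted p = 0.0505). None of the 8 genes and 0% of all probe sets were called in this comparison by limma, while 10.5% of all probe sets had an unadjusted p under 0.05. Whether Arc and Homer1 differed from each other in what was left of the response was not tested.

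Against vehicle, SL327 with kainic acid left no gene called. Homer1 differed from vehicle by -0.02 (95% interval -0.17 to 0.13, adjusted p = 0.947), and Arc by 0.21 (-0.39 to 0.80, adjusted p = 0.824). Set against the mean of the vehicle mice, the 3 mice given both agents had Arc differences of 0.60, -0.47 and 0.50, so replicate 2 lay below all vehicle mice and the other 2 above them. Without replicate 2 the difference of Arc was 0.55 (adjusted p = 0.313). Homer2, at 7.54 to 7.56 with both agents, was below all vehicle mice (7.61 to 7.72), as 8.59% of all probe sets were, with a difference of -0.12 (-0.22 to -0.01, adjusted p = 0.286). Shank2, at 7.36 to 7.39 with both agents and 7.39 to 7.41 in vehicle mice, was also lower in every mouse before rounding, with a difference of -0.03 (-0.12 to 0.06, adjusted p = 0.883 in the fit without the intensity filter). In this comparison 0.681% of all probe sets were called higher and 0.188% lower (0.869% in all).

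**Figure D3:**
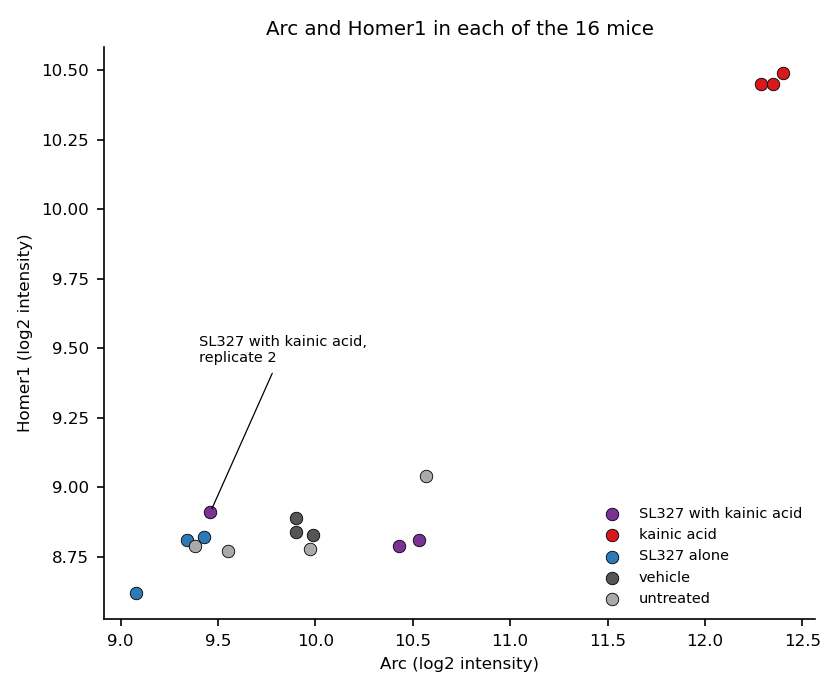
Homer1 (y axis) against Arc (x axis), both in log2 intensity, for the 16 mice coloured by group. The 3 kainic acid mice lie apart at the upper right, and among the other mice Arc runs from 9.08 to 10.57 while Homer1 stays between 8.62 and 9.04; replicate 2 of SL327 with kainic acid lies at 9.46 for Arc.

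SL327 alone lowered Homer2 and no other of these genes at the threshold. Homer2 was at 7.50, 7.41 and 7.46 in SL327 alone mice, against 7.61, 7.72 and 7.67 in vehicle mice. These groups did not overlap, and the change was -0.21 (SE 0.05, 95% interval -0.31 to -0.11, limma's adjusted p = 0.0216), where 0.833% of all probe sets were called lower and 5.48% higher (6.31% in all). Against untreated mice, at 7.58, 7.57, 7.60 and 7.63, the change was -0.14 and not called (adjusted p = 0.0919), and the call was also lost without vehicle replicate 2 or 3 or SL327 alone replicate 2 or 3 (adjusted p from 0.0733 to 0.0774). Arc was at 9.43, 9.08 and 9.34 in SL327 alone mice, against 9.90, 9.99 and 9.90 in vehicle mice. All SL327 alone mice lay below all vehicle mice, as did those of 8.57% of all probe sets. The change of Arc was -0.64 (SE 0.28, 95% interval -1.24 to -0.05, unadjusted p = 0.0359, adjusted p = 0.185), and it passed the threshold when the fit held only these 2 groups (adjusted p = 0.0199). Untreated mice, with Arc from 9.38 to 10.57, overlapped both groups. Homer1, at 8.82, 8.62 and 8.81 in SL327 alone mice, lay just below all vehicle mice and changed by -0.10 (-0.26 to 0.05, adjusted p = 0.414). Dlg4, at 9.89, 9.95 and 9.88, lay just above all vehicle mice, as 25.9% of all probe sets did, and changed by 0.09 (-0.09 to 0.26, adjusted p = 0.567). The remaining genes had adjusted p from 0.353 to 0.946.

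No gene differed between vehicle and untreated mice. Arc was at 9.90, 9.99 and 9.90 in vehicle mice, against 9.55, 9.38, 9.97 and 10.57 in untreated mice, a difference of 0.06 (95% interval -0.50 to 0.62, limma's adjusted p = 0.958). Homer1 was at 8.89, 8.83 and 8.84 in vehicle mice, against 8.77, 8.79, 8.78 and 9.04 in untreated mice, a difference of 0.01 (-0.13 to 0.15, adjusted p = 0.981). Untreated replicate 4 was the highest mouse outside the kainic acid group for both genes. None of the 9 genes had groups without overlap, whereas 1.01% of all tested probe sets were higher and 5.65% lower in every vehicle mouse. Across all probe sets 0% were called by limma and 6.68% had an unadjusted p under 0.05.

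Arc averaged 10.14 ± 0.59 in SL327 with kainic acid, 12.35 ± 0.06 in kainic acid, 9.29 ± 0.18 in SL327 alone, 9.93 ± 0.05 in vehicle (SD, n = 3 each) and 9.87 ± 0.53 in untreated mice (n = 4). From high to low the order was kainic acid, SL327 with kainic acid, vehicle, untreated and SL327 alone, and of the neighbours tested against each other only kainic acid and SL327 with kainic acid differed at the threshold. Homer1 averaged 8.84 ± 0.06 in SL327 with kainic acid, 10.46 ± 0.02 in kainic acid, 8.75 ± 0.11 in SL327 alone, 8.85 ± 0.03 in vehicle and 8.85 ± 0.13 in untreated mice. The 4 groups below kainic acid lay within 0.10 of each other in Homer1. Homer2 ran from 7.46 ± 0.05 in SL327 alone to 7.67 ± 0.06 in vehicle mice, and Shank1 from 10.17 ± 0.02 in vehicle to 10.31 ± 0.16 in untreated mice.

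Shank1, Dlg4 and Dlgap1 varied together among the untreated mice. Shank1 was at 10.45 and 10.45 in the first 2 untreated mice and at 10.16 and 10.17 in the other 2. Dlg4 was at 9.99 and 10.13 in the same 2 mice and at 9.80 and 9.76 in the others, and Dlgap1 was at 8.97 and 9.12, against 8.75 and 8.83. The same 2 untreated mice were thus the higher ones for all 3 genes. Over the deviations of the 16 arrays from their group means, Shank1 and Dlg4 had an r of 0.87, Dlg4 and Dlgap1 one of 0.70, Shank1 and Dlgap1 one of 0.69, and the 2 Dlgap1 probe sets one of 0.88. Arc and Homer1, in contrast, had an r of 0.40 and Homer1 and Dlg4 one of -0.54. The SD of untreated mice was 0.16 for Shank1 and 0.17 for Dlg4, against 0.02 to 0.07 and 0.04 to 0.08 in the other groups. The untreated mice thus carry much of the r of Shank1 with Dlg4, and r without them was not calculated. These correlations share the arrays and their normalization and are given as a description.

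The probe sets whose levels followed Arc most closely over the 16 arrays were those of Rgs4, a regulator of G protein signalling (Pearson r = 0.972), Smad7, an inhibitory Smad (0.971), Dusp6, the ERK phosphatase (0.967), Dnajb5, a co-chaperone (0.966), and Tmem178 (0.957). Those most like Homer1 were Stk40, a kinase-like protein (0.99), Tpm1, a tropomyosin (0.985), Spry2, a feedback inhibitor of ERK signalling (0.983), Ranbp2, a nucleoporin (0.982), and Frmd6 (0.982). Arc and Homer1 themselves had an r of 0.94. The kainic acid arrays carry much of this likeness. Over the other 13 arrays, r with Arc was 0.82 for Rgs4, 0.86 for Smad7 and 0.88 for Dusp6, r with Homer1 was 0.82 for Stk40 and 0.39 for Tpm1, and r of Arc with Homer1 was 0.53. With kainic acid Rgs4 rose by 1.48, Dusp6 by 0.92, Spry2 by 1.45 and Stk40 by 0.98. With SL327 before kainic acid they differed from kainic acid alone by -1.38, -0.85, -1.54 and -1.02. All were called, but the genes were chosen by likeness over arrays that include kainic acid. These calls therefore follow from the choice and are no separate result. With the constitutive genes r of Arc over all 16 arrays lay between -0.31 for Dlg4 and 0.17 for Shank3. Over the 13 arrays without kainic acid it was 0.55 for Homer2 and 0.50 for Homer3, close to that for Homer1, and lay between -0.34 for Dlg4 and 0.32 for Shank3 and Dlgap1 among the other genes tested.

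Of 27 other scaffold proteins of the postsynaptic density listed, 20 were tested, and 2 rose and 1 fell with kainic acid, where 7.41% of all tested probe sets rose and 12.2% fell, and the median change was -0.07, with -0.05 for all probe sets. Baiap2 (IRSp53), a PSD-95 and Shank partner that shapes actin, was at 9.39 ± 0.07 in kainic acid and 8.90 ± 0.07 in vehicle mice (SD, n = 3 each), a rise of 0.49 (SE 0.06, limma's adjusted p = 4.18e-05). Mice given both agents (8.95 ± 0.09) differed from kainic acid mice by -0.44 (adjusted p = 1.88e-04), so Baiap2 moved in the direction of Arc and Homer1 at a smaller size. Nlgn2, the neuroligin of inhibitory synapses, rose by 0.26 (adjusted p = 0.0364), and Kalrn, a guanine nucleotide exchange factor of spines, fell by 0.26 (adjusted p = 0.02). With SL327 before kainic acid Kalrn (0.27, adjusted p = 0.0167) and Sharpin, a Shank-binding protein (0.31, adjusted p = 0.0127), were higher than with kainic acid alone. Of all tested probe sets 13.1% were called higher in that comparison and 5.86% lower. Sharpin was also higher in SL327 alone (9.61 ± 0.07) than in vehicle mice (9.30 ± 0.07), by 0.31 (adjusted p = 0.0297). It was the 1 scaffold gene of the list called there, where 5.48% of all tested probe sets were called higher and 0.833% lower.

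Among 10 tested Homer ligands and partners in group I metabotropic receptor signalling, 2 fell and 0 rose with kainic acid (median -0.07), near the shares of all tested probe sets (12.2% lower and 7.41% higher). Gnaq, the G protein subunit behind these receptors, was at 7.38 ± 0.04 in kainic acid and 7.55 ± 0.04 in vehicle mice and fell by 0.17 (adjusted p = 0.0125), and mice given SL327 with kainic acid were higher than kainic acid mice by 0.15 (adjusted p = 0.028). Ryr2, a calcium release channel, fell by 0.30 (adjusted p = 0.0382). Grm5, the main group I receptor of the list, had a change of -0.02 (SE 0.30, adjusted p = 0.972). Among 16 tested Arc partners and AMPA receptor trafficking genes, 1 rose and 2 fell with kainic acid (median -0.07), where 19.6% of all tested probe sets were called (7.41% higher and 12.2% lower). Cltc, the clathrin heavy chain, was at 10.54 ± 0.06 in kainic acid and 10.23 ± 0.05 in vehicle mice, a rise of 0.30 (adjusted p = 4.17e-04), and mice given both agents differed from kainic acid mice by -0.30 (adjusted p = 6.22e-04). In that comparison 2 genes of the list were called higher, Wasf1, a WAVE complex protein of actin (0.34, adjusted p = 0.0153), and Dnm2 (0.12, adjusted p = 0.038). Of all tested probe sets 13.1% were called higher there and 5.86% lower. Wasf1 also had a positive interaction (0.46, adjusted p = 0.0429), where 1.98% of all tested probe sets were called positive and 3.78% negative. Dnm1 and Dnm2, dynamins that pinch off endocytic vesicles and with which Arc interacts, fell by 0.15 (adjusted p = 0.0288) and 0.12 (adjusted p = 0.0304). These changes of clathrin and dynamin were far smaller than that of Arc.

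Of 14 tested transcription factors and coactivators listed for the regulatory regions of Arc or Homer1, 5 rose and 1 fell with kainic acid. The median change of the list was 0.13, and 7.41% of all tested probe sets rose and 12.2% fell. Nr4a1 was at 10.21 ± 0.36 in kainic acid and 8.05 ± 0.10 in vehicle mice, a rise of 2.16 (SE 0.26, adjusted p = 5.88e-05). Egr3 rose by 2.10 (SE 0.11, adjusted p = 4.94e-08), Egr1 by 1.03 (SE 0.10, adjusted p = 9.21e-06) and Srf, the serum response factor, by 0.98 (SE 0.07, adjusted p = 2.33e-07). Elk4 rose by 0.22 and Elk1 fell by 0.29, and both are partners of Srf. With SL327 before kainic acid Nr4a1, Egr3, Egr1 and Srf differed from kainic acid alone by -1.06, -1.71, -0.57 and -0.81, all called lower. Elk1 and the coactivators Crtc1 and Crebbp were called higher, by 0.32, 0.25 and 0.21. Of all tested probe sets 5.86% were called lower in that comparison and 13.1% higher. The Egr3 level was 8.75 ± 0.27 in SL327 with kainic acid, 10.46 ± 0.21 in kainic acid, 8.62 ± 0.03 in SL327 alone and 8.36 ± 0.07 in vehicle mice, and that of Nr4a1 was 9.15 ± 0.67 in SL327 with kainic acid and 8.31 ± 0.12 in SL327 alone mice. In both genes mice given both agents lay between kainic acid and vehicle mice on average. Neither was called against vehicle, where 0.869% of all tested probe sets were called. The difference of Nr4a1 from vehicle, 1.10, was still the highest of the list.

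Of 19 tested actin regulators of the dendritic spine, 1 rose and 0 fell with kainic acid (median 0.05), where 7.41% of all tested probe sets rose and 12.2% fell. The gene that rose was Wasl, an activator of actin branching (0.27, adjusted p = 0.0488). Pfn2, a profilin, was the 1 such gene higher with SL327 alone than with vehicle (0.30, adjusted p = 0.0157). Of all tested probe sets 5.48% were called higher in that comparison and 0.833% lower. Of 4 tested NMDA receptor subunits 0 were called in either comparison, and Grin2a had the widest change with kainic acid at -0.26 (SE 0.13, unadjusted p = 0.0684, adjusted p = 0.184). In SL327 with kainic acid against vehicle, 0 genes of the 6 lists were called by limma, where 0.869% of all tested probe sets were called.

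**Figure D4:**
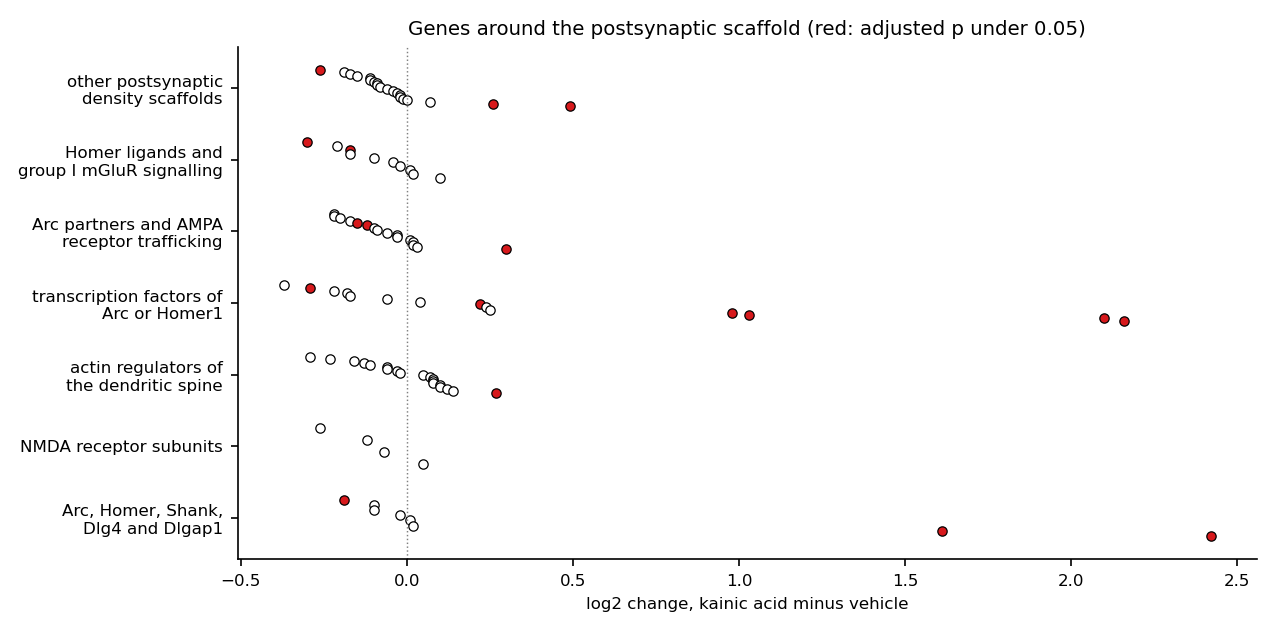
Log2 change with kainic acid minus vehicle (x axis) of each tested gene (points) in 6 lists of related genes and in the Arc, Homer, Shank, Dlg4 and Dlgap1 set (rows); red points have an adjusted p under 0.05. Apart from Arc, Homer1 and 4 transcription factors at 0.98 to 2.16, all genes lie between -0.37 and 0.49.

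Markers of dentate granule cells, in which seizures are known to induce Arc strongly, moved with the same comparisons. Of 5 measured, Prox1, Dsp and Lct fell with kainic acid by 0.67, 0.92 and 0.79, while C1ql2 (-0.16) and Calb1 (0.00) were not called. Over all tested probe sets, 12.2% were called lower with kainic acid and 7.41% higher. When SL327 preceded kainic acid, 3 of the 5 markers were called higher than with kainic acid alone and 0 lower. In that comparison 13.1% of all tested probe sets were called higher and 5.86% lower. The summed level of the 5 markers ran from 11.64 to 12.12 in SL327 with kainic acid, 11.31 to 11.47 in kainic acid, 11.57 to 11.73 in SL327 alone, 11.66 to 11.97 in vehicle and 11.64 to 12.07 in untreated mice. The kainic acid mice were thus lowest for these markers and highest for Arc and Homer1, and the part of this in the results was not tested. Gad1 rose by 0.53 with kainic acid, the 1 call among 4 tested markers of inhibitory neurons, where 7.41% of all tested probe sets rose. Summed choroid plexus markers varied within groups, from 9.96 to 12.19 in SL327 with kainic acid, 10.09 to 11.41 in kainic acid, 11.88 to 12.55 in SL327 alone, 10.12 to 12.02 in vehicle and 9.81 to 12.86 in untreated mice, and their part in the lower Homer2 of SL327 alone mice was not tested.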

How the data were processed

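The authors hybridized hippocampal RNA to Affymetrix mouse exon arrays, and the deposited table holds log2 intensities that they made by RMA in the oligo package, whose version is not given in the sources used here. Values were used as deposited. In every probe set the third highest array reached at least 6.42, so the table may already have been filtered. Of 20372 probe sets, 14704 had 1 gene in the platform annotation, 713 several and 4955 none. Named probe sets above the array median (7.43 to 7.53) in at least 3 of the 16 arrays were tested (8520 probe sets of 7565 genes). The restriction of the methods to probe sets of category main was not repeated, and arrays from later times were not analysed here.

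Groups came from the sample labels. A model of the 5 group means was fitted in R 4.3.3 with limma 3.58.1 (11 residual and 3.2 prior degrees of freedom), with 7 two-sided contrasts and Benjamini-Hochberg adjustment over all 8520 probe sets at a threshold of 0.05. Intervals cover 95%, and the number of mice limits the precision. The fit was tested on simulated data with independent normal noise. Changes of 0.25, 0.5 and 1 in kainic acid mice were called in 34.3%, 86.6% and 98.5% of the changed probe sets, with 13 false calls. Most changes of 0.25 were thus missed. Genes and lists were chosen with earlier results of these data known. Named were all 9 genes, up to 4 called genes per list for kainic acid minus vehicle and up to 2 for SL327 alone minus vehicle, and the 5 genes most correlated with Arc and with Homer1; Elk1, Elk4, Crtc1, Crebbp, Wasf1, Grm5 and Grin2a are named beyond this rule, after their values were seen. Promoters and gene positions are from RefSeq. Alternatives were other filters, normalizations, spread estimates, controls, samples in the fit, a mean over probe sets, a replicate block and leaving out each array.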

Additional observations from a re-analysis of the deposited data

Results flagged for a closer look

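In 4 untreated mice, the highest Homer1 level, 9.04, lay apart from the other 3 (8.77 to 8.79), with a gap of 0.931 of the range, above Dixon's critical value for 4 samples. The same mouse had the highest Arc level of the untreated mice, 10.57. The lowest Homer3 level of the untreated mice, 8.01, lay apart from the others (8.17 to 8.20), with a gap of 0.85 of the range. Chance gives such a gap in about 1 of 20 groups, and 10 probe sets were looked at.

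The response to kainic acid differed with the inhibitor in 3 genes. The difference in response, SL327 with kainic acid minus SL327 alone less kainic acid minus vehicle, was -1.56 for Arc (limma's adjusted p = 0.032), -1.52 for Homer1 (2.87e-06) and 0.28 for Homer2 (0.0244).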

How the results depend on the processing

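The calls of Arc and Homer1 with kainic acid against vehicle and with SL327 and kainic acid against kainic acid held under every alternative run, with changes of 2.39 to 2.48 and 1.60 to 1.64 in the first comparison and of -2.40 to -1.87 and -1.66 to -1.60 in the second. Under every alternative 2 or 3 genes were called with kainic acid, 2 between the kainic acid groups, and 0 in SL327 with kainic acid against vehicle or SL327 alone and in vehicle against untreated mice. For the interaction, 3 genes were called, and 1 (Homer1) to 3 with 1 array left out. For SL327 alone, 1 gene was called, 0 with probe sets above the median in all 16 arrays (where Homer2 was not tested), 0 against untreated mice, 2 when the fit held only the groups compared, and 0 to 1 with 1 array left out. The Arc interaction was not called without the intensity filter (adjusted p = 0.0531). Homer2 was not called with kainic acid when the fit held only the groups compared (adjusted p = 0.0642), and its interaction was not called against untreated mice (0.21, adjusted p = 0.062). For the other tested genes, 985 values under alternatives gave 0 calls, and 8 moved by over 1 SD; the mean of both Dlgap1 probe sets gave a change of -0.40 with kainic acid (adjusted p = 0.256).

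Over all probe sets the 1673 calls for kainic acid ran from 1010 to 2812 under the alternatives, the 1613 between the kainic acid groups from 841 to 2053, the 491 for the interaction from 252 to 1140, the 74 for SL327 with kainic acid against vehicle from 12 to 359, the 0 against SL327 alone from 0 to 47, the 538 for SL327 alone from 96 to 1750, and the 0 for vehicle against untreated mice from 0 to 1. The labels do not say whether same-numbered mice were handled together. Of 30 same-numbered pairs, 5 had a correlation of deviations over 0.1 (range -0.218 to 0.176). Differently numbered pairs were not compared, so these values cannot decide whether the replicate numbers pair the mice. With the replicate number as a block, Arc and Homer1 changed by 2.42 and 1.61 with kainic acid and by -2.21 and -1.63 between the kainic acid groups, 3, 2, 2 and 1 genes were called for kainic acid, between the kainic acid groups, for the interaction and for SL327 alone, and the interaction of Homer2 (0.28, adjusted p = 0.059) was the one call lost. The cause of these differences was not tested.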
